A study of Mus musculus with 24 samples.

Results

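The 10 genes examined here are core components of the mammalian circadian clock and its direct output: the activators Clock, Npas2 and Arntl, the repressors Per1, Per2 and Per3, the nuclear receptors Nr1d1 and Nr1d2, and the output factors Dbp and Tef. They were taken as every probe set, a group of short probes that reads one transcript, whose only gene symbol in the array annotation is one of these names. That gave 26 probe sets for the 10 genes, among 45037 probe sets and 18193 genes with a single symbol on the array. All 10 genes and 19 of the 26 probe sets passed a filter that asked for a mean log2 value of at least 4 in striatum or in cerebellum, as did 10766 genes and 20738 probe sets in all. Where a gene had several probe sets past the filter, the one with the highest mean over the 24 arrays stood for it.

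The study compared mice homozygous for the HdhQ111 knock-in allele (HdhQ111/HdhQ111, genotype Q111/Q111), in which the mouse Huntington's disease gene codes for an expanded tract of glutamines, with wild-type mice (Hdh+/Hdh+, Q7/Q7) that carry the short tract. Because the allele replaces the endogenous gene, it is under that gene's own promoter in every cell. Striatum and cerebellum were profiled at an age the labels give as 3 to 10 weeks, with 6 arrays in each of the 4 groups of genotype and tissue, called Q111 and wild type below. The labels give neither the mice's sex and strain nor the hour at which tissue was taken, and they do not say whether 1 mouse gave both tissues, so time of day and genotype cannot be told apart from the labels.

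In the clock of nearly every mammalian cell, CLOCK or its close relative NPAS2 pairs with ARNTL and switches on genes through E-box elements, among them the Per genes, Nr1d1, Nr1d2, Dbp and Tef. PER proteins, with the cryptochromes, then repress that activity, while NR1D1 and NR1D2 repress Arntl and Npas2, so that these transcripts peak at a different time of day from Per, Nr1d1 and Dbp transcripts. DBP and TEF bind D-box elements in a further set of rhythmic genes, including Per genes. NPAS2 is found mainly in the forebrain, where it can stand in for CLOCK.

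Promoter windows of 250 bases before a transcript start, from RefSeq on GRCm38.p6, were given for 9 of the 10 genes in 14 windows and were searched on both strands for 3 motifs: the E-box CACGTG, the D-box TTATGTAA or TTACGTAA, and TAGGTCA, the core of the element that NR1D1 and the ROR receptors bind. The 4 windows below are shown because they belong to the genes with the clearest genotype differences. Each is printed along the gene's own strand, with matches to a motif in capitals. The windows are Per3 (chr4:151044666-151044915, minus strand), Per1 (chr11:69098699-69098948, plus strand), Tef (chr15:81802423-81802672, plus strand) and Npas2 (chr1:39194022-39194271, plus strand).
Per3: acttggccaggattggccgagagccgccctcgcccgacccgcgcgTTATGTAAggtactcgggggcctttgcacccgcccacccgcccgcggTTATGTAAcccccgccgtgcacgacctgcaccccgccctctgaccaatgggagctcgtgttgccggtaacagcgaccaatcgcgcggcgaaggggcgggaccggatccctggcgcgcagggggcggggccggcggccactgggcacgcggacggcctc
Per1: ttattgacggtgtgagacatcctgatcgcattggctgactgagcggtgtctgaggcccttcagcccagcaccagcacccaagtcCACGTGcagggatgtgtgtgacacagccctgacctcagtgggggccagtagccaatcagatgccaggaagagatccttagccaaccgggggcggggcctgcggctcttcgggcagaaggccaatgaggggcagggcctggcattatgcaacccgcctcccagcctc
Tef: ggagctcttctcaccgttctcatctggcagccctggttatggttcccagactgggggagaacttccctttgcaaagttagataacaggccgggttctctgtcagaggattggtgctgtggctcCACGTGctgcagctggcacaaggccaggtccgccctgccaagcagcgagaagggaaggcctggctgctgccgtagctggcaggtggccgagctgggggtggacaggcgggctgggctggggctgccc
Npas2: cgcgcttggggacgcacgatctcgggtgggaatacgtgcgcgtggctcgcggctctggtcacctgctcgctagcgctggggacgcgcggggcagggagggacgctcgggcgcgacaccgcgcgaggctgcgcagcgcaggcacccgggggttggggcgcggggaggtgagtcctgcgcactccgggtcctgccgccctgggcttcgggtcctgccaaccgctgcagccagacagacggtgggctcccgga

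The Per3 window held 2 D-boxes, which began 205 and 158 bases before the start. A D-box was present in 0.931% of all 32851 promoter windows of that length, and 2 or more in 0.0213%. An E-box was found in 2 of the 9 genes. It lay 166 bases before the start in the Per1 window shown and 127 bases before it in that of Tef. A second Per1 window, at chr11:69099902-69100151 on the plus strand, had none, and a second Tef window, at chr15:81811164-81811413 on the plus strand, had one 138 bases before its start. E-boxes occurred in 6.02% of all windows, and 6.86% of all genes had one in at least 1 window. The Npas2 window held none of these letters, and TAGGTCA, present in 2.23% of all windows, was in no window of the 9 genes. Bases outside the windows, including those after the start, were not searched. An absence here therefore does not show that a gene, such as Arntl, lacks the element. Per2 is the tenth gene.

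The tissue labels were borne out by cell markers. The mean level of 16 striatal projection neuron genes was 10.91 ± 0.29 in wild-type striatum and 4.76 ± 0.06 in wild-type cerebellum (SD, n = 6), and that of 8 granule neuron genes was 3.97 ± 0.25 and 12.15 ± 0.20. Array medians lay between 3.38 and 3.51. The lowest value on an array was 0.36 to 0.38 in striatum and -0.77 to -0.66 in cerebellum, and whether both tissues were normalized together was not stated in the labels. The replicates are labelled biological but no mice are named, and the p-values therefore reflect the scatter among these arrays only. In bulk tissue, fewer cells of a type and less RNA per cell cannot be told apart.

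In striatum, Npas2 rose and Per3 fell in Q111 mice. Npas2 was 2.37-fold higher and Per3 was 1.51-fold lower, and in neither gene did any Q111 array overlap a wild-type array. These 2 of 10 genes passed an adjusted p of 0.05 (limma, Benjamini-Hochberg over the 20738 probe sets), against 2.78% of all genes tested. Per1 and Tef had lower means in Q111 striatum without passing that threshold, and Clock and Nr1d2 differed least. Of the 10 genes 7 had a lower mean in Q111, and their median difference was -0.15 on the log2 scale, beside -0.03 over all genes, of which 42.2% were higher. After quantile normalization or median centring 6 of the 10 were lower, beside 50.1% and 45% of all genes. The groups did not overlap for Npas2, Per3 and Tef, 3 of 10 genes, against 2.43% of all genes.

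**Figure D1:**
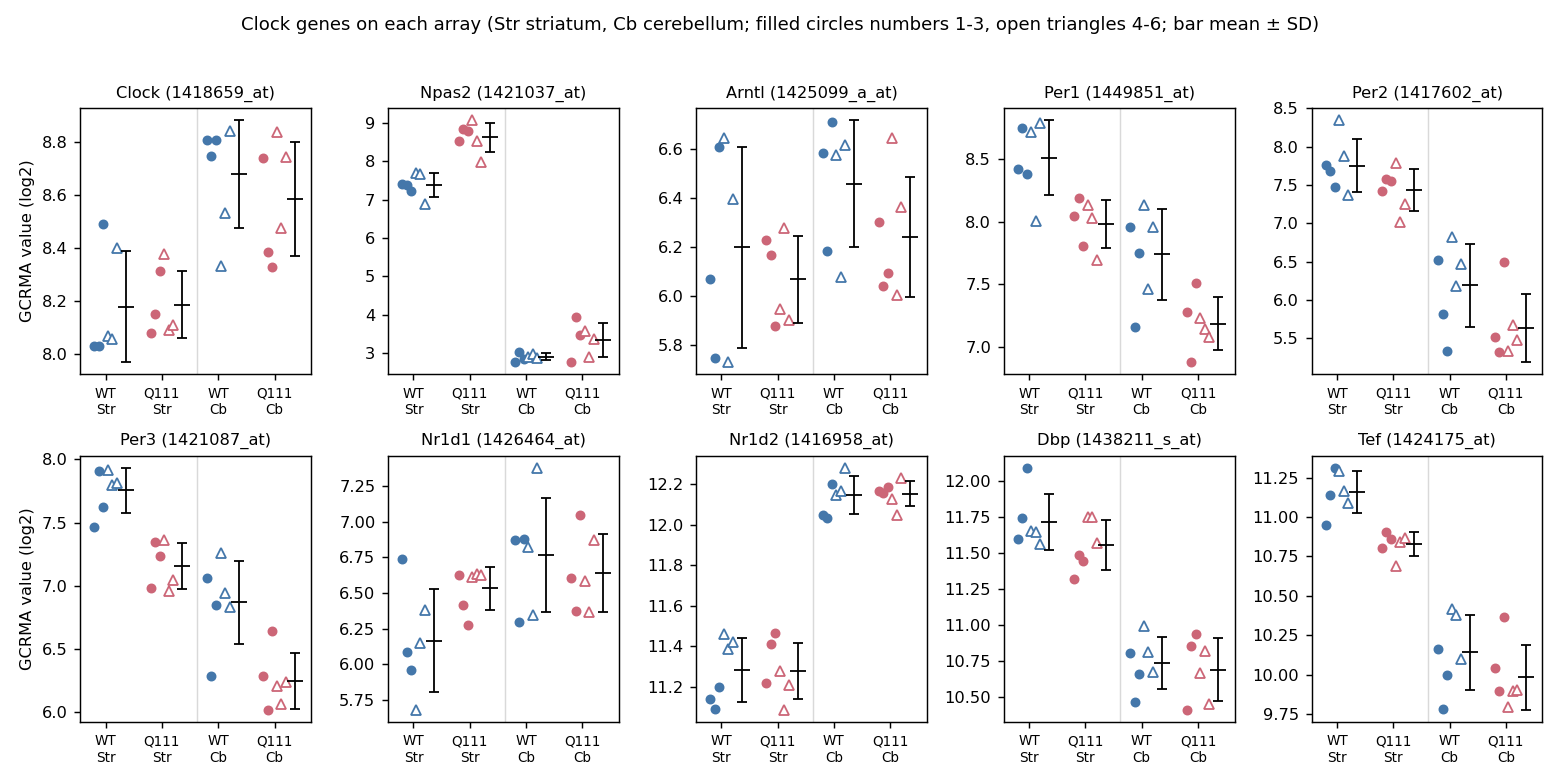
Log2 GCRMA value of each clock gene's probe set on each of the 24 arrays, with wild type in blue, Q111 in red, and the mean ± SD beside each group of 6; each panel has its own scale that does not start at 0. Npas2 in striatum runs from 6.88 to 7.70 in wild type and from 7.99 to 9.07 in Q111, and Per3 from 7.46 to 7.92 and from 6.96 to 7.37.

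Among the activators, Npas2 (probe set 1421037_at) read 7.40, 7.39, 7.22, 7.70, 7.68 and 6.88 on the 6 wild-type striatum arrays. On the 6 Q111 striatum arrays it read 8.53, 8.84, 8.79, 9.07, 8.52 and 7.99. The lowest Q111 array lay above the highest wild-type array. The means were 7.38 ± 0.31 and 8.62 ± 0.37 (SD, n = 6), a log2 difference of 1.24 (SE 0.18, 95% interval 0.87 to 1.61, adjusted p = 5.73e-04 by limma). By size it was the 4th highest difference of 10766 genes. A second Npas2 probe set, 1421036_at, did not pass the filter, with means of 3.00 and 4.27; without a filter its difference was 1.27 (SE 0.23, adjusted p = 0.0108). Its wild-type arrays ran from 2.86 to 3.16 and its Q111 arrays from 3.16 to 5.22, so the groups met at 3.16.

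Markers of cerebral cortex neurons, which lie next to the striatum in a dissection, also had higher means in the Q111 striatum samples. All 8 marker genes past the filter had a higher mean in Q111, beside 42.2% of all genes, and 2 of the 8 rose, beside 2.78% of all genes called in either direction: Neurod6 by 1.12 (SE 0.20, adjusted p = 0.00345) and Fezf2 by 0.71 (SE 0.15, adjusted p = 0.0132), both transcription factors of cortical projection neurons. The list's mean level ran from 6.68 to 7.48 in wild-type striatum and from 6.90 to 7.98 in Q111 striatum, with none of the 8 genes below 4. With that level as a covariate, an alternative chosen after seeing the data, the Npas2 difference was 1.44 (SE 0.21, adjusted p = 0.00256). The Per3 difference was then -0.57 (SE 0.14) and no longer passed the threshold (adjusted p = 0.0749).

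Clock, the usual partner of ARNTL, had nearly the same mean in both genotypes. Its 4 probe sets differed by between 0.01 and 0.15 in striatum, and none passed the threshold. For 1418659_at, which stands for the gene, the means were 8.18 ± 0.21 and 8.19 ± 0.13, with an interval of the difference from -0.22 to 0.23. Arntl, the shared partner, had means of 6.20 ± 0.41 and 6.07 ± 0.18. The Arntl difference of -0.13 (SE 0.16, adjusted p = 0.707) was smaller than the spread of the wild-type arrays, which ran from 5.73 to 6.65.

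Of the repressors, Per3 (1421087_at) read 7.46, 7.91, 7.63, 7.92, 7.80 and 7.82 in wild-type striatum. In Q111 striatum it read 6.98, 7.35, 7.24, 7.37, 6.96 and 7.05. Every Q111 array lay below every wild-type array. The means were 7.75 ± 0.18 and 7.16 ± 0.18, a log2 difference of -0.60 (SE 0.13, 95% interval -0.87 to -0.33, adjusted p = 0.0164 by limma). Leaving out any 1 of the 12 striatum arrays kept the adjusted p between 0.0110 and 0.0474.

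The other Per3 probe sets did not all show that difference. The probe set 1460662_at, left out by the filter, read 3.87 to 4.22 in wild-type striatum and 2.71 to 2.92 in Q111 striatum, a difference of -1.16 (SE 0.13, adjusted p = 8.88e-05 without a filter). Probe sets 1421086_at, 1442243_at and 1458176_at passed the filter and differed by -0.03, -0.19 and 0.15, with overlapping groups and adjusted p values of 0.910, 0.454 and 0.825. The sixth, 1441445_at, stayed below 4 in every group. Which transcripts each probe set reads is not given in the files used here.

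**Figure D2:**
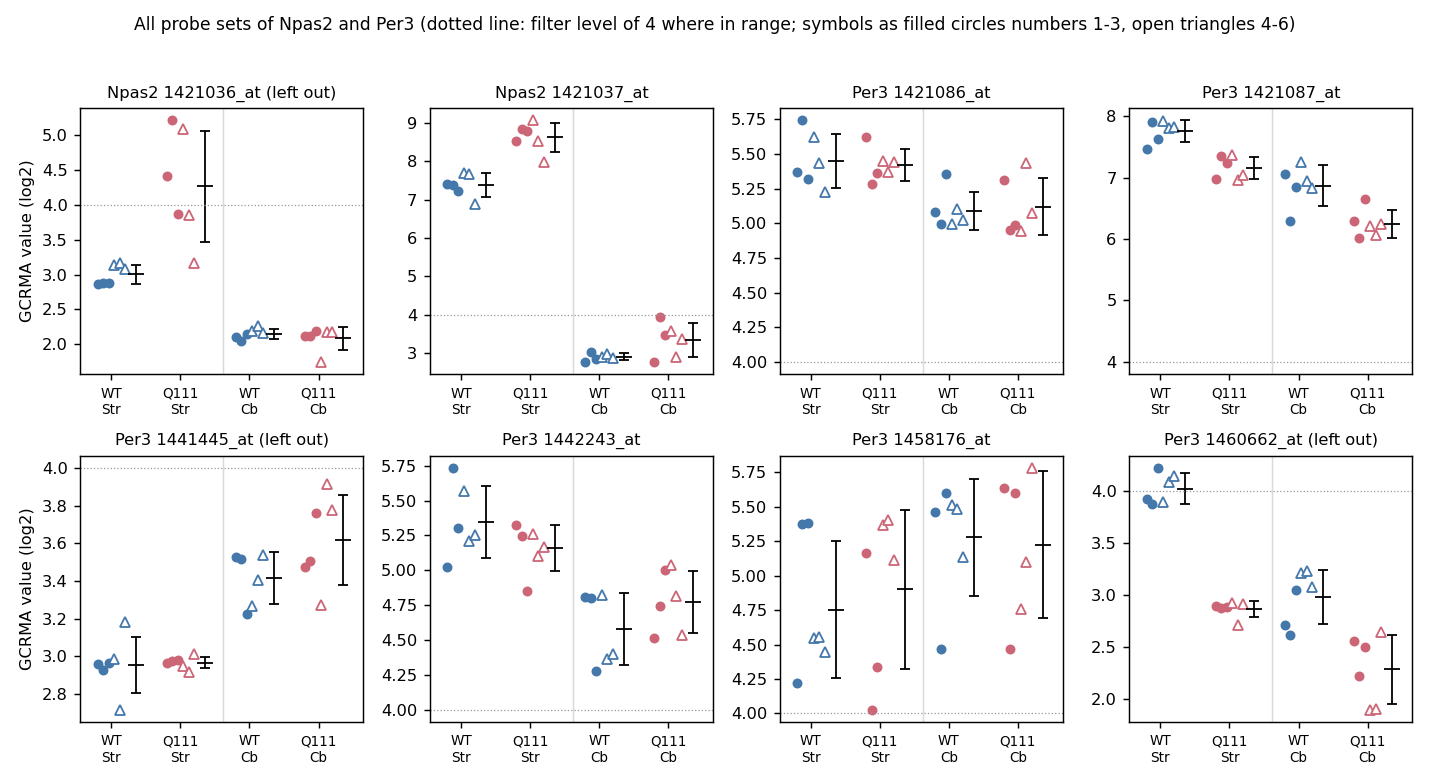
Log2 GCRMA values of the 2 Npas2 and 6 Per3 probe sets on all 24 arrays, with wild type in blue and Q111 in red and the mean ± SD beside each group; those marked left out did not pass the filter. In striatum both Npas2 probe sets have higher means in Q111, with means of 7.38 and 8.62 for 1421037_at, while Per3 shows groups apart for 1421087_at and 1460662_at and overlapping groups for the other 4.

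Per1, which also responds quickly to light and neuronal activity, ran from 8.01 to 8.78 with a median of 8.57 in wild-type striatum. In Q111 striatum it ran from 7.70 to 8.19 with a median of 8.04. Wild-type array 5, at 8.01, was the only wild-type array inside the Q111 range. The log2 difference of -0.53 (SE 0.15, 95% interval -0.84 to -0.21) did not pass the threshold (adjusted p = 0.0594). It passed with the mean level of thalamus genes as a covariate (-0.53, adjusted p = 0.0430) or with that of choroid plexus genes (-0.50, adjusted p = 0.0406), both chosen after seeing the data, and not with that of cortex genes (-0.42, adjusted p = 0.251). Per2 differed by -0.32 (SE 0.22, adjusted p = 0.476), from 7.75 ± 0.35 to 7.44 ± 0.27. Its 2 other probe sets stayed below the filter.

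The nuclear receptors showed no called difference in striatum. Nr1d1 (REV-ERB alpha) ran from 5.68 to 6.74 in wild type and from 6.28 to 6.63 in Q111. Its difference of 0.37 (SE 0.17, adjusted p = 0.242) had the opposite sign to those of the Per genes. Nr1d2 (REV-ERB beta) had means of 11.28 ± 0.16 and 11.28 ± 0.14, with an interval of the difference from -0.16 to 0.15. A dimmer Nr1d2 probe set, 1416959_at, differed by -0.42 (SE 0.29, adjusted p = 0.459).

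Of the output factors, Tef (1424175_at) read 10.95, 11.14, 11.31, 11.29, 11.17 and 11.09 in wild-type striatum and 10.80, 10.91, 10.86, 10.69, 10.84 and 10.87 in Q111 striatum. The groups did not overlap, by a narrow gap between 10.91 and 10.95. The difference of -0.33 (SE 0.10) missed the threshold (adjusted p = 0.0725). It passed when the 12 striatum arrays were fitted alone (adjusted p = 0.0353). A second Tef probe set, 1450184_s_at, had the opposite sign, 0.84 (SE 0.39, adjusted p = 0.241), and its wild-type arrays ran from 5.87 to 8.44. Another, 1438033_at, was left out by the filter, with means of 3.29 and 2.82. Without a filter its difference was -0.47 (SE 0.20, adjusted p = 0.342 by limma). Dbp, usually among the most strongly rhythmic clock outputs, differed by -0.16 (SE 0.11, adjusted p = 0.447), from 11.71 ± 0.19 to 11.55 ± 0.17.

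In cerebellum, Per3 fell by 0.62 on the log2 scale in Q111 mice, beside 0.60 in striatum. It was the 1 clock gene of 10 called there, against 0.446% of all genes. Per1 and Per2 also had lower means in Q111 cerebellum without passing the threshold, and 8 of the 10 genes were lower. The median difference was -0.14 on the log2 scale, beside -0.05 over all genes, of which 33.9% were higher. With quantile normalization 8 of the 10 were lower, beside 47.3% of all genes, and with median centring 6, beside 36%. For 0 of the 10 genes did the groups stand apart, against 1.21% of all genes.

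**Figure D3:**
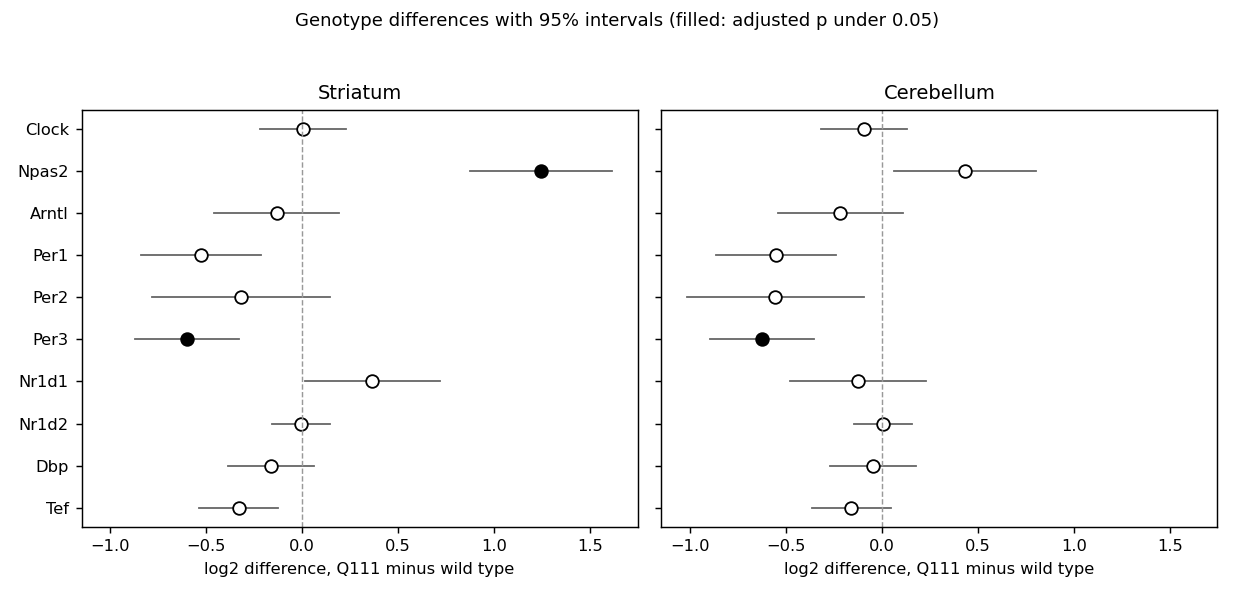
Log2 difference between Q111 and wild type for each clock gene in striatum and in cerebellum, as points with 95% intervals from the limma fit; filled points have an adjusted p under 0.05. Npas2 in striatum at 1.24 and Per3 at -0.60 in striatum and -0.62 in cerebellum are filled.

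Per3 read 7.06, 6.29, 6.85, 7.26, 6.94 and 6.83 in wild-type cerebellum and 6.29, 6.02, 6.65, 6.21, 6.07 and 6.24 in Q111 cerebellum. Wild-type array 2 lay among the Q111 arrays, and the other 5 lay above all of them. The means were 6.87 ± 0.33 and 6.25 ± 0.22, a difference of -0.62 (SE 0.13, 95% interval -0.89 to -0.35, adjusted p = 0.0293), which is 1.54-fold lower. This call depended on single arrays. Without wild-type array 1, 4, 5 or 6 or Q111 array 2, 4 or 5 the adjusted p lay between 0.0545 and 0.0850, and without wild-type array 2 the difference was -0.74 with an adjusted p of 0.00210. Per3 was called in both tissues in the same direction, as were 0.149% of all genes. Both tissues' differences come from 1 fit that pools the spread.

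The Per3 probe set left out by the filter, 1460662_at, ran from 2.61 to 3.23 in wild-type cerebellum and from 1.89 to 2.64 in Q111 cerebellum. Its difference without a filter was -0.70 (SE 0.13, adjusted p = 0.0247), at levels below 4 in both groups. Probe sets 1421086_at, 1442243_at and 1458176_at differed by 0.03, 0.20 and -0.05, and none passed the threshold.

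Per1 in cerebellum ran from 7.16 to 8.13 with a median of 7.86 in wild type and from 6.88 to 7.51 with a median of 7.19 in Q111. Its difference was -0.55 (SE 0.15, adjusted p = 0.0991). Per2 ran from 5.34 to 6.82 and from 5.32 to 6.50, with a difference of -0.55 (SE 0.22, adjusted p = 0.264). All 3 Per genes thus had lower means in Q111 in both tissues, also after quantile normalization and median centring, and of their 6 differences those of Per3 passed the threshold.

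Genes on a list of immediate early genes also had lower means in Q111 cerebellum. Whether they, Jund among them, follow neuronal activity in these mice was not tested. Of 16 genes on that list past the filter, 14 had a lower mean, beside 66.1% of all genes. Their median difference was -0.37, beside -0.05 over all genes, and 1 of the 16 fell, beside 0.446% of all genes called: Jund, an AP-1 subunit, by 0.48 (SE 0.10, adjusted p = 0.0275). The list's mean level ran from 6.09 to 6.83 in wild-type and from 5.55 to 6.22 in Q111 cerebellum, with 4 of the 16 genes below 4. With that level as a covariate, chosen after seeing the data, the Per3 difference was -0.45 (SE 0.17, adjusted p = 0.253) and the Per1 difference -0.27 (SE 0.19, adjusted p = 0.564). In striatum 11 of the 16 were lower, beside 57.8% of all genes. There Jun rose by 0.51 (SE 0.10, adjusted p = 0.00783) and Jund fell by 0.39 (SE 0.10, adjusted p = 0.0348). With the same covariate in striatum, Npas2 was at 1.30 (adjusted p = 5.68e-04) and Per3 at -0.57 (adjusted p = 0.0221).

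Npas2 was near background in cerebellum. Its arrays ran from 2.78 to 3.04 in wild type and from 2.77 to 3.93 in Q111, all under the filter level of 4, so no fold is given. The difference was 0.43 (SE 0.18, adjusted p = 0.277). The remaining genes differed little there: Arntl by -0.22, Tef by -0.16, Nr1d1 by -0.12, Clock by -0.09, Dbp by -0.05 and Nr1d2 by 0.01. Their adjusted p values were all at least 0.495.

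Whether the genotype difference itself differed between tissues was tested with the interaction of genotype and tissue. None of the 10 genes passed (0 of 10, limma), against 0.0836% of all genes, and 1 had an unadjusted p under 0.05, as did 10.2% of all genes. That gene was Npas2, with a striatal difference larger by 0.81 (SE 0.25, unadjusted p = 0.00400, adjusted p = 0.207). Because every cerebellar Npas2 value lay under the filter level, the size of this difference between tissues is uncertain. For Per3 the interaction was 0.03, with an interval from -0.36 to 0.41.

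**Figure D4:**
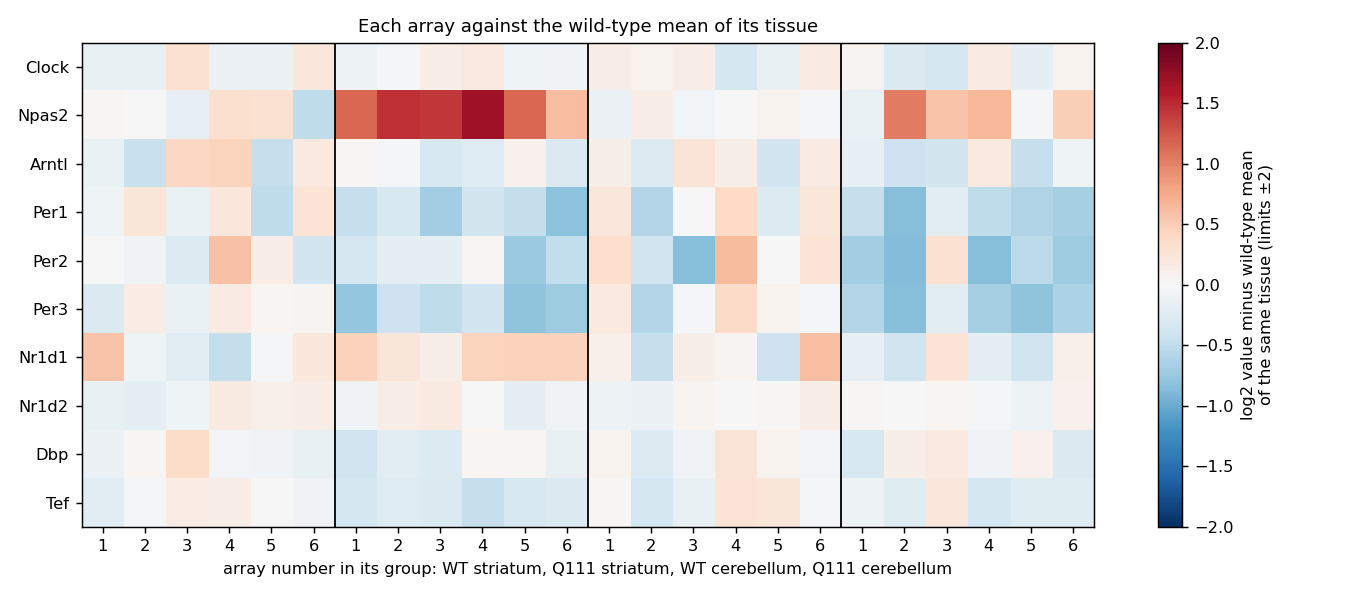
Each clock gene on each of the 24 arrays as its log2 value minus the wild-type mean of the same tissue, with arrays in columns by group and number, and red above and blue below that mean. Npas2 is above it on all 6 Q111 striatum arrays, and Per1 and Per3 are below it on all 6 Q111 arrays of either tissue.

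For the called genes every Q111 array lay on the same side of the wild-type mean. For Npas2 and Per3 in striatum this follows from groups that do not overlap, and it is not separate evidence. Npas2 exceeded the wild-type mean on 6 of 6 Q111 striatum arrays, and Per3 lay below it on 6 of 6 Q111 arrays in striatum and on 6 of 6 in cerebellum. Per1 was also below it on 6 of 6 in each tissue, and Nr1d1 was above it on 6 of 6 in striatum, though neither gene was called. Per2 was below it on 5 of 6 in each tissue, and Tef on 6 of 6 in striatum and 5 of 6 in cerebellum. The share of all genes with such counts was not computed. Of all genes, 57.8% in striatum and 66.1% in cerebellum had a lower mean in Q111. These counts are therefore not evidence apart from the mean differences.

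Arrays numbered 1 to 3 and 4 to 6 form separate stretches of the deposition order in each tissue, and each stretch is called a run here. The labels name no batch, so whether a run was processed together is not known. Each genotype difference was fitted within both runs with 8 groups of 3 arrays. In striatum Npas2 differed by 1.38 (SE 0.27, adjusted p = 0.0305) in numbers 1 to 3 and by 1.11 (SE 0.27, adjusted p = 0.0469) in numbers 4 to 6. Per3 differed by -0.48 (adjusted p = 0.207) and -0.72 (adjusted p = 0.0539), and Per1 by -0.50 and -0.55. In this fit Npas2 was the 1 of 10 called in each run, against 0.381% and 0.79% of all genes. With the 12 arrays numbered 4 to 6 fitted alone, Npas2 did not pass (1.11, adjusted p = 0.0785) and Per3 did (-0.72, adjusted p = 0.0325). With numbers 1 to 3 alone, Npas2 passed (adjusted p = 0.0227) and Per3 did not (adjusted p = 0.282). In cerebellum Per3 differed by -0.41 and -0.84, Per1 by -0.40 and -0.70, and Per2 by -0.11 and -0.995. None of the 10 was called there in either run (limma, adjusted p under 0.05), against 0.0186% and 0.0372% of all genes called. An unadjusted p under 0.05 was found for 1 and 4 of the 10 in cerebellum and for 6 and 6 in striatum. The share of all genes at that unadjusted level within runs was not counted. The 3 Per genes had lower means in Q111 in both runs of both tissues, and the difference between runs did not pass the threshold for any of them.

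The striatal Nr1d2 difference was not the same in both runs. In striatum it was 0.22 higher in Q111 in numbers 1 to 3 and -0.23 in numbers 4 to 6, and the difference between runs, -0.45 (SE 0.12), passed the threshold (adjusted p = 0.0397). Such a difference between runs was called for 2.1% of all genes in striatum and 0.00929% in cerebellum. Dbp differed by -0.39 and 0.07 in striatum, a gap of 0.46 (SE 0.20) that did not pass (adjusted p = 0.218). Tef in cerebellum differed by 0.12 and -0.44 (gap -0.55, SE 0.18, adjusted p = 0.557).

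**Figure D5:**
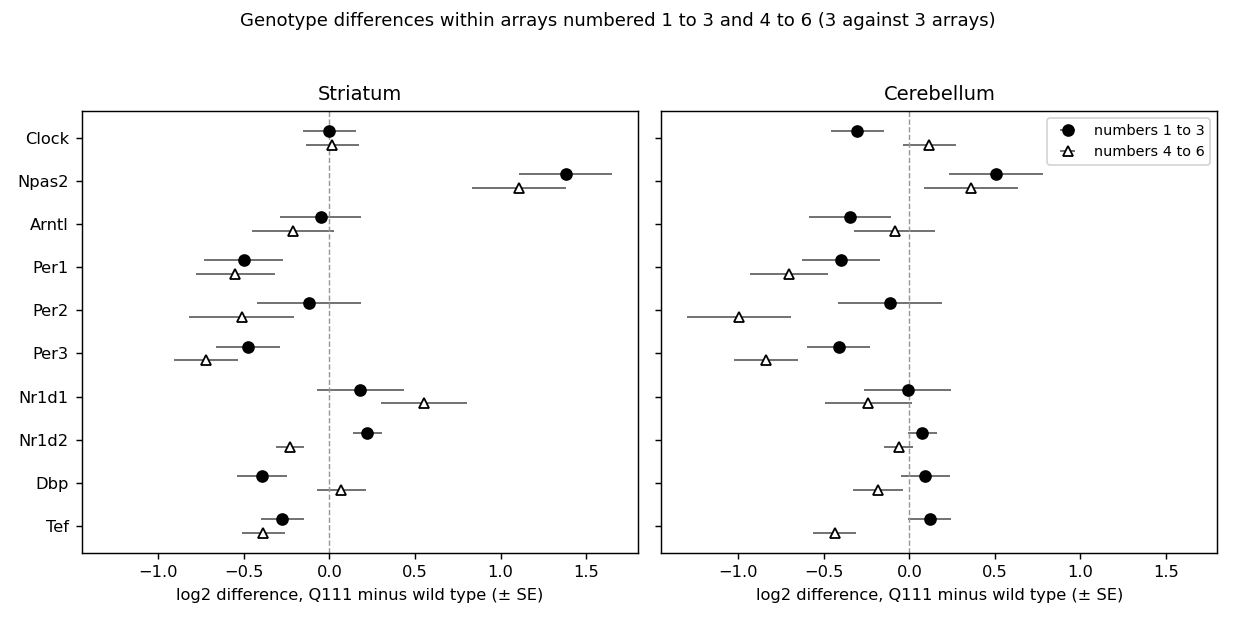
Log2 difference between Q111 and wild type ± SE for each clock gene, fitted within arrays numbered 1 to 3 (filled circles) and 4 to 6 (open triangles), each 3 against 3 arrays, in striatum and cerebellum. Npas2 in striatum, at 1.38 and 1.11, and Per3, at -0.48 and -0.72, have 1 direction in both runs, while Nr1d2 in striatum lies at 0.22 and -0.23.

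Genes of like and of opposite daily phase were set against each other array by array. For this, 8 pairs were correlated over the 12 arrays of each tissue after removing group means. That step also removes any difference between genotypes in the hour of sampling, which the labels do not give. Such a difference was therefore not tested. None of the 16 relations passed after adjustment. The closest was Per1 with Per2 in cerebellum, with Pearson r = 0.65 (permutation p = 0.0362, adjusted 0.514) and Spearman rho = 0.76 (permutation p = 0.0124, adjusted 0.198). Without the 2 arrays farthest from the median of Per1, r was 0.58, and with run means removed as well it was 0.60. Arntl with Dbp, a pair of opposite phase, had r = 0.21 in striatum (permutation p = 0.644, adjusted 0.891) and r = -0.19 in cerebellum (permutation p = 0.559, adjusted 0.891). All these tests were two-sided with 1e+05 draws.

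Striatum and cerebellum arrays of the same genotype and number were also compared for each gene, over 12 pairs of arrays. Group means were again removed, so a difference in hour between genotypes was not tested here either. None of the 10 relations passed after adjustment. The highest was that of Nr1d2, with r = 0.61 (permutation p = 0.0582, adjusted 0.582) and rho = 0.51 (permutation p = 0.118, adjusted 0.591). For Per3 r was -0.13 (permutation p = 0.696, adjusted 0.898).

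Of 19 other clock genes (cryptochromes, ROR receptors, casein kinases and their like), 13 passed the filter and 0 were called in striatum or in cerebellum, beside 2.78% and 0.446% of all genes (limma). Of the 13, 3 and 5 had an unadjusted p under 0.05, beside 19.2% and 14.4% of all genes. Their median differences were -0.05 and -0.16, beside -0.03 and -0.05. In striatum the lowest p values belonged to the casein kinase Csnk1e, at 0.23 (SE 0.07, adjusted p = 0.0824), and the ubiquitin ligase subunit Btrc, at -0.20 (SE 0.07, adjusted p = 0.124). In cerebellum they belonged to the repressor Cry1, at -0.33 (SE 0.10, adjusted p = 0.136), and to Csnk1e, at -0.21 (SE 0.07, adjusted p = 0.201).

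Of 8 rhythmic output genes outside the core clock, 0 were called in striatum or in cerebellum, beside 2.78% and 0.446% of all genes (limma). An unadjusted p under 0.05 was found for 1 and 1, beside 19.2% and 14.4% of all genes. The list's medians were 0.15 in striatum and -0.06 in cerebellum, beside -0.03 and -0.05 over all genes. Nampt, which makes an NAD precursor, was at -0.16 (SE 0.08, adjusted p = 0.262) and the chaperone Hsph1 at 0.18 (SE 0.09, adjusted p = 0.264) in striatum, and in cerebellum Coq10b was at -0.43 (SE 0.12, adjusted p = 0.104). Of 10 glucocorticoid target genes, which follow the daily hormone cycle and stress, 0 were called in either tissue. An unadjusted p under 0.05 was found for 4 and 0, and the medians were 0.24 and 0.16. Given the shares of all genes, 0 called in lists of 8 or 10 genes does not set these lists apart. Zbtb16 was at 0.94 (SE 0.27, adjusted p = 0.0569) and Cdkn1a at 0.60 (SE 0.18, adjusted p = 0.0646) in striatum.

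Of the other markers, choroid plexus genes varied widely among striatum arrays, from 5.02 to 8.17 in wild type and from 5.73 to 8.47 in Q111 as a mean of 7 genes, and with that level as a covariate, chosen after seeing the data, Tef (-0.34, adjusted p = 0.0433) passed in striatum beside Npas2, Per3 and Per1. The 4 thalamus genes ran from 5.23 to 7.92 and from 5.11 to 7.48 there. None of 7 choroid plexus, 4 thalamus, 16 striatal projection neuron, 8 granule neuron or 6 Purkinje cell genes was called between genotypes (limma). Of all genes, 2.78% were called in striatum and 0.446% in cerebellum. Lists this small therefore cannot show whether cell composition was the same. In striatum 0, 0, 5, 0 and 1 had an unadjusted p under 0.05, beside 19.2% of all genes. In cerebellum 0, 0, 3, 0 and 1 did, beside 14.4%. Means below 4 in wild-type striatum were found for 6 of the 8 granule neuron and 2 of the 6 Purkinje cell genes. In wild-type cerebellum they were found for 7 of the 16 striatal projection neuron genes. Levels near background limit what these genes can show there. The list medians, in the same order, were -0.20, 0.12, -0.21, -0.02 and -0.15 in striatum and 0.13, -0.06, -0.05, 0.05 and -0.16 in cerebellum. Means were lower in Q111 striatum for 4, 1, 13, 4 and 4 genes of these lists, beside 57.8% of all genes. The 13 were striatal projection neuron genes, of 16, and the cause was not tested. For cerebellum the counts were 0, 3, 9, 3 and 5, beside 66.1%.

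Between striatum and cerebellum, 9 of the 10 clock genes were called in wild type and 8 of 10 in Q111. These shares lie near those of all genes, 73.8% and 73.6%. Per1, Per2, Per3, Npas2, Dbp and Tef were higher in striatum, and Clock and Nr1d2 were higher in cerebellum, in both genotypes. These comparisons assume that values of the tissues share a scale.

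Npas2 had the widest gap of the 10. Its cerebellar means, 2.90 in wild type and 3.34 in Q111, lay below the filter level, so only a lower bound is given. With cerebellar values raised to 4, striatum was higher by at least 3.38 on the log2 scale in wild type and by at least 4.62 in Q111. Per2 followed at 1.56 (SE 0.22) and 1.80 (SE 0.22), from 6.19 ± 0.54 in wild-type cerebellum to 7.75 ± 0.35 in wild-type striatum. Tef was at 1.02 and 0.84, Dbp at 0.98 and 0.86, Per3 at 0.88 and 0.91, and Per1 at 0.77 and 0.80. For Per1 the 4 means ran in the order wild-type striatum 8.51, Q111 striatum 7.98, wild-type cerebellum 7.74 and Q111 cerebellum 7.19, and each neighbouring pair of groups overlapped. For Per3 the order was the same, at 7.75, 7.16, 6.87 and 6.25, and of its neighbours Q111 striatum and wild-type cerebellum overlapped, as did the groups of cerebellum.

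Nr1d2 was lower in striatum by -0.86 (SE 0.07) in wild type and -0.87 (SE 0.07) in Q111, and no striatum array reached the cerebellar range. Clock was at -0.50 (SE 0.11, adjusted p = 2.56e-04) and -0.40 (SE 0.11, adjusted p = 0.00223), with all 4 of its probe sets lower in striatum. Nr1d1 was called in wild type, at -0.60 (SE 0.17, adjusted p = 0.00309), and not in Q111, at -0.11 (SE 0.17, adjusted p = 0.577). The difference between these values, 0.49 (SE 0.24), did not pass the threshold (adjusted p = 0.498). Arntl differed by -0.26 (adjusted p = 0.144) and -0.17 (adjusted p = 0.327).

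The genes whose values followed Per3 most closely over the 24 arrays, after removing group means, were Crtc3 (r = 0.83), Samd8 (r = 0.82) and Rab40c (r = 0.82), out of 10756 compared. None of them was called in a genotype comparison, with striatal differences of -0.06, -0.11 and -0.07. For Npas2 they were Ylpm1 (r = 0.71), Castor2 (r = 0.70) and C130071C03Rik (r = -0.70), also not called, with striatal differences of -0.03, 0.15 and 0.12. The arrays share tissue and run, and these values describe likeness only.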

How the data were processed

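Total RNA from striatum and cerebellum was hybridised to Affymetrix MG430 2.0 arrays, 24 in all, with 6 in each group. The deposited values are on a log2 scale, made by the authors with GCRMA, per the submitters' processing notes, whose version they do not state. GCRMA corrects background, normalizes and summarises the probes of a probe set, so low values sit near background and differences there are compressed. The table was used as deposited, without its 64 control probe sets. Gene symbols came from the 2016 platform annotation, and 34945 probe sets had 1 symbol.

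Group means were fitted over all 24 arrays with limma 3.58.1 in R 4.3.3 (20 residual degrees of freedom, 3.22 prior), with empirical Bayes moderation and Benjamini-Hochberg adjustment over all probe sets past the filter, and genes were called at an adjusted p under 0.05. The fit and the permutation tests were tested on simulated data. The number of arrays limits the precision.

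The genes, lists and tests were chosen with earlier results of these data known. Named were all 10 genes, up to 3 called genes of each other list or otherwise up to 2 with the lowest p, and the 3 genes most like each called clock gene. Every probe set of the 10 genes was examined, and not all of them are described here. Alternatives covered filters, scaling, moderation, array weights, blocks, subsets of arrays and thresholds, and marker levels as covariates were added after seeing the data. Same-numbered arrays of the 2 genotypes had negative correlations of deviations in striatum (-0.41 to -0.09) and correlations of either sign in cerebellum (-0.42 to 0.12). Over tissues not every same-numbered pair exceeded 0.1. For these reasons numbers were not used as pairs. Within a tissue the means of numbers 1 to 3 and 4 to 6 differed with an SD of only 0.05 over probe sets, and whether the runs had been adjusted to each other was not stated in the labels.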

Additional observations from a re-analysis of the deposited data

Results flagged for a closer look

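In 8 of 84 groups of 6 arrays, 1 array lay far from the other 5, by Dixon's criterion, which by chance marks about 1 group in 20. These were wild-type striatum 3 for Clock 1418660_at (7.87, next value 7.56) and for Dbp 1438211_s_at (12.09, next value 11.74), wild-type cerebellum 4 for Clock 1439314_at (6.12, next value 5.84) and wild-type cerebellum 3 for Per3 1421086_at (5.35, next value 5.10). In Q111 they were striatum 5 for Nr1d2 1416959_at (4.68, next value 5.76) and for Per3 1460662_at (2.71, next value 2.88), and cerebellum 3 for Per2 1417602_at (6.50, next value 5.67) and cerebellum 4 for Npas2 1421036_at (1.75, next value 2.12, both below the filter). None of these groups belongs to the probe sets with a called genotype difference among those past the filter.

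For 2 probe sets the striatal genotype difference itself differed between arrays numbered 4 to 6 and 1 to 3 past an adjusted p of 0.05 (limma, interaction of genotype and run). For Nr1d2 1416958_at the gap was -0.45. For Tef 1450184_s_at it was 2.61: in wild-type striatum that probe set read 8.44, 7.44 and 8.10 in numbers 1 to 3 and 5.87, 6.77 and 5.97 in numbers 4 to 6, and in Q111 striatum 7.45, 7.60 and 7.53 and then 8.51, 8.02 and 8.52. The Tef probe set that stands for the gene, 1424175_at, differed between runs by -0.11 (adjusted p = 0.796).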

How the results depend on the processing

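In striatum, the count of 2 called clock genes was kept under 12 of 20 alternatives. It was 2 to 3 when each array was left out in turn. It was 1 in numbers 1 to 3 alone (Npas2), 1 in numbers 4 to 6 alone (Per3), 1 at an adjusted p under 0.01 and 1 with the cortex marker level as a covariate (Npas2 in both), and 4 at an adjusted p under 0.1 and 4 with the choroid plexus level (adding Per1 and Tef). Tef was added with the 12 striatum arrays alone (adjusted p = 0.0353 by limma). Per1 was added with the thalamus level as a covariate (adjusted p = 0.0430 by limma). In cerebellum, the count of 1 was kept under 12 of 20 alternatives. It was 0 with no filter (Per3 adjusted p = 0.0577), 0 with the run as a term (0.0586), 0 in numbers 1 to 3 alone (0.585), 0 in numbers 4 to 6 alone (0.0571), 0 with the 12 cerebellum arrays alone (0.0906), 0 at an adjusted p under 0.01, 0 with the immediate early gene level, and 2 at an adjusted p under 0.1, and it ranged from 0 to 2 when each array was left out. In these alone fits fewer arrays set the spread. The interaction count of 0 became 1 (Npas2) with values under 4 set to 4, where its cerebellar difference is 0 by construction and the interaction repeats the striatal difference. The tissue count of 9 in wild type was 9 under 15 of 17 alternatives and 8 in numbers 1 to 3 alone (without Nr1d1) and in 4 to 6 alone (without Clock). That of 8 in Q111 was 8 under 16 of 17 and 7 in numbers 1 to 3 alone (without Clock). With the replicate block, counts were 2 in striatum, 1 in cerebellum, 0 for the interaction and 9 and 8 between tissues. The last 3 were the same with the number taken within genotype in place of tissue, a block chosen after seeing the data. Over tissues, same-numbered arrays had correlations of deviations from -0.0043 to 0.18 in wild type, where 3 of 6 were best with their own number (4, 5 and 6), and from -0.05 to 0.14 in Q111, where 2 of 6 were (3 and 6). For single genes, 1543 alternative values kept direction and side of the threshold, 26 lost and 11 gained a call, and 80 without a call changed sign. Values that reversed a called direction came from other Per3 probe sets: 0.15 for 1458176_at in striatum, 0.0275 for 1421086_at and 0.20 for 1442243_at in cerebellum, and -0.52 and -0.32 for 1458176_at between tissues in wild type and Q111. The cause was not tested. No relation between clock genes passed with run means removed. Signal near background limits Npas2 in cerebellum and the probe sets below 4.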
